A study of Mus musculus with 18 samples.

Results

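Drugs, plant compounds, bile pigments and steroids are made more soluble, and ready for export, by enzymes that attach a polar group to them. UDP-glucuronosyltransferases (UGT) attach glucuronic acid, cytosolic sulfotransferases (SULT) attach sulfate, and glutathione S-transferases (GST) attach glutathione to reactive molecules such as oxidized lipids. In the colon these enzymes sit mainly in the epithelium, where they meet compounds from the diet and the microbiota. The genes described here are the rows of the deposited expression table whose symbols begin with Ugt1, Ugt2 or Ugt3, with Sult and a digit, or with Gsta, Gstm, Gstp, Gstt, Gsto, Gstk or Gstz and a digit. There were 62 such genes of 35976 rows: 21 GST, 21 SULT and 20 UGT genes. All 62 are protein-coding genes in the RefSeq annotation of GRCm38.p6 (mm10).

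RNA was sequenced from 18 pieces of mouse colon taken on day 2, with 6 libraries in each of 3 groups. Sham animals were without colitis. The vehicle group and the ISM012-042 group had colitis induced by TNBS, a hapten that provokes acute inflammation of the colon, and received vehicle or the compound ISM012-042, a PHD inhibitor restricted to the gut according to the series title. PHD enzymes are prolyl hydroxylases that limit the stability of hypoxia-inducible factor. The labels used here give no strain, sex, age or dose, do not say from which end of the colon a piece came, and do not say that each sample is a separate animal, so the p-values measure only the spread from sample to sample. Levels are in TPM (a share of transcripts corrected for length, so that genes can be compared with each other). TPM sums to 1000000 in each library and keeps no depth, so the depth is unknown. In bulk tissue, fewer cells of a type and less RNA per cell cannot be told apart.

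Between 12681 and 14632 genes reached 1 TPM per library, and the 13 mitochondrial genes took between 20.1% and 57.8% of the TPM. All 10 epithelial markers reached 1 TPM, with summed levels of 6897 to 15569 TPM over the 18 libraries. Of 7 liver markers, 3 reached 1 TPM, and their sum lay between 2.25 and 39.9 TPM. The level of Hoxb13, a homeobox gene of the distal colon, ran from 0.329 TPM in ISM012-042 replicate 5 to 287.9 TPM in sham replicate 4, and it spanned wide ranges in each group: 9.05 to 287.9 TPM in sham, 1.52 to 179.3 TPM in vehicle and 0.329 to 219.1 TPM in ISM012-042.

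The control region of a gene is where the factors that switch on conjugation genes bind, so the 250 bases before the start site are shown for the 3 genes that were lower in colitis and whose window lies wholly outside the annotated gene, and for Ugt1a1, whose level moved most with Hoxb13 among the UGT1 genes. They come from the RefSeq promoter table of GRCm38.p6 and read 5′ to 3′ on the gene's strand. Gstm1 is at chr3:108017974-108018223 on the minus strand, Gstm3 at chr3:107969175-107969424 on the minus strand, Sult1b1 at chr5:87538196-87538445 on the minus strand and Ugt1a1 at chr1:88211709-88211958 on the plus strand. Capitals mark exact matches, on either strand, to 3 short motifs. TGANNNNGC is the core of the antioxidant response element bound by NRF2. GCGTG is the core bound by the aryl hydrocarbon receptor, and ACGTG is a form of the core bound by hypoxia-inducible factor. GCGTG is also a form of the latter core, so these motifs do not tell the factors apart.
Gstm1: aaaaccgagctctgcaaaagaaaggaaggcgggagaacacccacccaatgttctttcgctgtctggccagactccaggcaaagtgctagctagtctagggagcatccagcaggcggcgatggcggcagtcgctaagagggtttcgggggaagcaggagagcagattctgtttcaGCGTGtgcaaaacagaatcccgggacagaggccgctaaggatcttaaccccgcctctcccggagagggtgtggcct
Gstm3: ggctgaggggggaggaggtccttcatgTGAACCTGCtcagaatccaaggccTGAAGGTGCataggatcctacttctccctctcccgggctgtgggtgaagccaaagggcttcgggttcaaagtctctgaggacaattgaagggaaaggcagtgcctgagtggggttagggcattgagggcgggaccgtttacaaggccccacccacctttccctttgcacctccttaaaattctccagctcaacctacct
Sult1b1: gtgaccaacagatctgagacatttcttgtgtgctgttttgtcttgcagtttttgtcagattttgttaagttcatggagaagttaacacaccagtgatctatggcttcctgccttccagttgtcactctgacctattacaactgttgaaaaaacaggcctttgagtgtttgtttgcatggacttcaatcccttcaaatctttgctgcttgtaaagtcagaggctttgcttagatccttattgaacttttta
Ugt1a1: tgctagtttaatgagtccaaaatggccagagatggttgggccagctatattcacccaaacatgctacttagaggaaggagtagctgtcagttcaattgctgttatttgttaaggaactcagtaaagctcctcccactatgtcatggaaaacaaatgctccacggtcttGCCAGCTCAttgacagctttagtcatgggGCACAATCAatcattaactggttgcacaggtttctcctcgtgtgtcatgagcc
The Gstm1 window held 1 GCGTG, 76 bases before the start. Gstm3 held 2 copies of TGANNNNGC, beginning 223 and 199 bases before the start, and Ugt1a1 held 2 on the other strand. The Sult1b1 window shown held none of the 3 motifs. The table also gives a second window for Gstm1, with 1 GCGTG and 1 ACGTG, and for Sult1b1, with 1 GCGTG; both of these lie at least in part within the annotated gene and are not shown. Over the 29 tested genes with a window, the first window held TGANNNNGC in 15 genes, or 51.7%, against 35.1% of all 27025 genes in the table. GCGTG was found in 5, or 17.2%, against 28.2%, and ACGTG in 3, or 10.3%, against 16.6%. Overlapping matches to different motifs were counted under each. A match is a run of letters and was not read as a bound site.

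The colon expressed a subset of these families. With a filter of at least 1 TPM in at least 6 libraries, 33 of the 62 genes were tested: 19 of 21 GST, 6 of 21 SULT and 8 of 20 UGT genes. Another 11 were listed at 0 in all 18 libraries, namely the 8 Sult2a genes, Sult3a1, Sult3a2 and Ugt3a1. A further 15 stayed under 1 TPM in every library without being 0 in all, among them Ugt3a2, whose highest value was 0.198 TPM. Gsto2, Sult5a1 and Ugt2b38 reached 1 TPM in some library but were not tested, with highest values of 1.48, 2.29 and 1.43 TPM.

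By mean level over the 18 libraries, Gstp1 led with 306 TPM. Gstp1 is the pi-class enzyme found in most epithelia. It was followed by Gsto1 with 279 TPM, Sult1a1 with 254 TPM, Ugt2b34 with 242 TPM, Sult1d1 with 211 TPM and Sult1b1 with 192 TPM. Gsto1 is the omega-class enzyme that reduces dehydroascorbate, and Sult1a1 sulfates simple phenols. The ranges of these 6 genes over libraries overlapped one another, for example 219.9 to 406.5 TPM for Gstp1 and 81.0 to 515.5 TPM for Sult1a1, so their order is one of means only. Of the 50-base runs of Gstp1, 62.3% also occur in its neighbour Gstp2, and runs shared with other transcripts make up 72.6% of Gstp2, 89.7% of Gsta1 and 64.2% of Gsta2, so the levels of these single genes are uncertain.

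Summed over all its genes, the GST family stood at 1422 ± 131 TPM in sham, 1227 ± 199 TPM in vehicle and 1440 ± 100 TPM in ISM012-042 (SD, n = 6 per group). The SULT family stood at 825 ± 255, 583 ± 180 and 763 ± 292 TPM, and the UGT family at 503 ± 197, 428 ± 159 and 594 ± 240 TPM in the same order. The groups overlapped in all 3 family sums, although each mean was lowest in vehicle. With median-ratio scaling the GST mean was lowest in ISM012-042 instead, at 1276 TPM against 1355 TPM in vehicle. Leaving out the mitochondrial genes and rescaling raised the sums to 2152, 1989 and 2113 TPM for GST. Within the GST family, the summed level of the mu class ranged from 361.5 to 571.0 TPM in sham and from 198.3 to 353.3 TPM in vehicle, with no overlap, and from 266.3 to 465.4 TPM in ISM012-042. Sham and vehicle did overlap under the other scalings, with 356.4 to 579.3 and 248.1 to 399.7 TPM by the median ratio and 525.1 to 810.3 and 370.3 to 632.2 TPM without the mitochondrial genes.

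**Figure D1:**
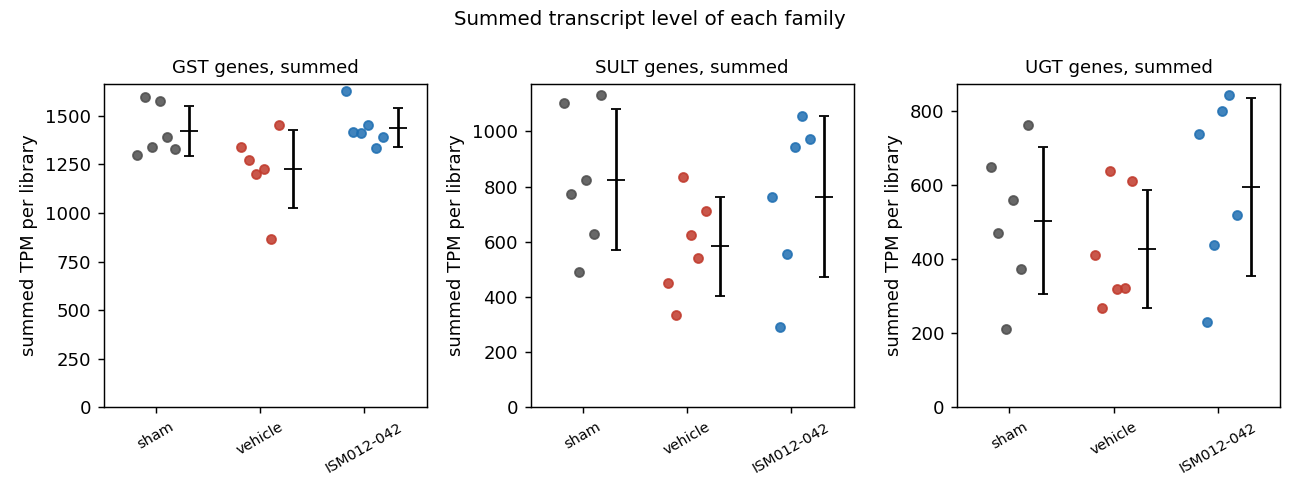
Summed TPM of the GST, SULT and UGT genes in each library (y axis, TPM; x axis, group of 6 libraries); points are libraries, and the bar with its cap lines shows the mean ± SD. The means are lowest in vehicle in each family, at 1227, 583 and 428 TPM, and the points of the groups overlap.

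The comparison of vehicle with sham asks what TNBS colitis did to these genes. Of the 33 tested genes, 5 were lower and none was higher in vehicle: the glutathione transferases Gstm1, Gstm3, Gstm6 and Gstt1 and the sulfotransferase Sult1b1. That is 15.15% of the tested genes lower, against 4.13% of all 14129 genes tested, and 0% higher against 0.326% (limma on log2(TPM + 1), Benjamini-Hochberg adjusted p under 0.05). At an unadjusted p under 0.05, 8 were lower and 0 higher, against 14.9% and 3.16% of all genes. Differences are given as log2 differences of TPM + 1 with their SE, a scale that understates the change of genes with low levels. The median difference over the 33 genes was -0.20, against -0.07 over all genes tested, and 12 of 33 differences were positive, against 41.3%.

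The mu class is a cluster of 7 genes on chromosome 3, between 107895854 and 108045179 in GRCm38.p6, whose enzymes conjugate epoxides, quinones and other electrophiles. Gstm1 (chr3:108012250-108017973) ranged from 116.2 TPM through a median of 186 to 241.6 TPM in sham, from 76.2 through 96.0 to 137.8 TPM in vehicle and from 120.8 through 139.1 to 169.8 TPM in ISM012-042. All vehicle libraries but 1 lay below the lowest sham library. With 6 libraries a group, Gstm1 fell by 0.87 ± 0.18 in log2 terms (adjusted p = 0.00899 in limma). Gstm3 (chr3:107963696-107969174) was a low transcript, at 3.64 through 5.30 to 6.77 TPM in sham and 1.44 through 2.30 to 3.57 TPM in vehicle. It fell by 0.94 ± 0.19 (adjusted p = 0.00775 in limma). Gstm6 (chr3:107938847-107953641) ranged from 8.55 through 15.6 to 17.96 TPM in sham and from 3.25 through 5.51 to 8.98 TPM in vehicle, where the top of vehicle just passed the bottom of sham. It had the most negative difference of the 33 genes, -1.15 ± 0.26 (adjusted p = 0.0178 in limma).

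The other 4 mu genes also had negative differences, and none passed the test in limma. Gstm2, the mu gene of highest level with 211.6 ± 34.5 TPM in sham and 133.4 ± 40.1 TPM in vehicle (SD), had -0.71 ± 0.21 (adjusted p = 0.0593 in limma), and Gstm7 had -0.82 ± 0.26 (adjusted p = 0.0761). Gstm2 passed, with adjusted p = 0.0179 in limma, when the columns were rescaled by the median ratio of all genes, and with 0.0188 when the mitochondrial genes were left out. The median difference of the 7 mu genes was -0.82, and all 7 stayed negative under both of these scalings. Runs of 50 bases shared with another annotated transcript made up 23.1% of Gstm1, 28.8% of Gstm3 and 11.5% of Gstm6. The largest share was with Gstm2-ps1 for Gstm1, at 17.3%, and with Gm8834 for Gstm3, at 16%, and neither is among the 7 mu genes. How the authors divided reads among such copies is not given in the sources used here. The levels of these single genes, and the class sum, are therefore uncertain.

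The theta class holds the enzymes that act on small halogenated compounds. Gstt1 (chr10:75783813-75798584) ranged from 27.0 through 35.4 to 42.4 TPM in sham, from 18.1 through 21.4 to 30.6 TPM in vehicle and from 21.8 through 30.1 to 36.6 TPM in ISM012-042. All vehicle libraries but replicate 4 lay below sham. Gstt1 fell by 0.66 ± 0.16 (adjusted p = 0.0226 in limma), but it missed the threshold with median-ratio scaling, at -0.54 with adjusted p = 0.06, and without the mitochondrial genes, at -0.56 with adjusted p = 0.0561. Gstt3, the highest theta gene, stood at 45.9 ± 11.4 TPM in sham and 35.4 ± 13.2 TPM in vehicle (SD), a difference of -0.41 ± 0.21 that did not pass (adjusted p = 0.325 in limma).

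The sulfotransferase Sult1b1 (chr5:87513327-87538195), which sulfates thyroid hormones and phenols, ranged from 207.9 through 267.9 to 299.2 TPM in sham, from 99.1 through 148.1 to 214.8 TPM in vehicle and from 122.8 through 173.2 to 215.7 TPM in ISM012-042. A single vehicle library, replicate 1, reached into the sham range. Sult1b1 fell by 0.79 ± 0.19 (adjusted p = 0.0226 in limma). It shared no run of 50 bases with another annotated transcript, as was the case for Gstt1. The other SULT1 genes were more uneven within groups: Sult1a1 stood at 296 ± 149 TPM in sham and 190.3 ± 84.3 TPM in vehicle, and Sult1d1, which sulfates dopamine, at 205.8 ± 88.7 and 183.9 ± 98.7 TPM (SD). Their differences, -0.63 ± 0.43 and -0.20 ± 0.45, did not pass (adjusted p = 0.472 and 0.862 in limma). Sult2b1, which sulfates cholesterol, stood at 29.9 ± 3.40 TPM in sham and 25.1 ± 13.5 TPM in vehicle, and Sult4a1, best known from brain, stayed between 0.84 and 3.46 TPM in all libraries.

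**Figure D2:**
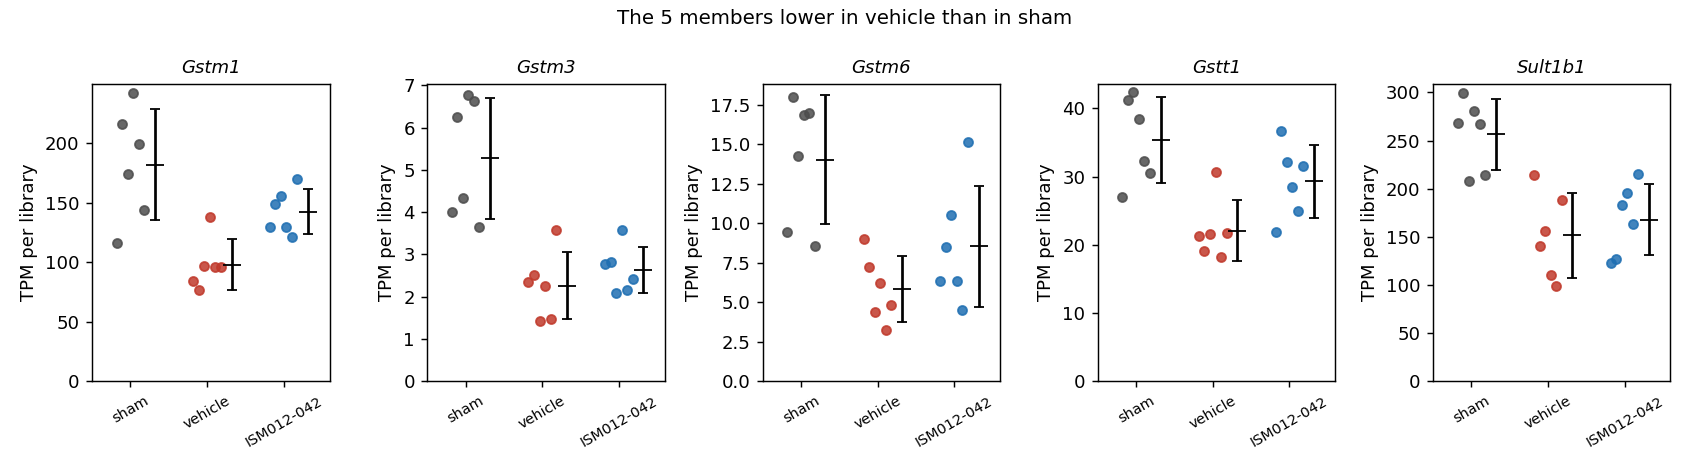
TPM of the 5 genes that passed as lower in vehicle than in sham (y axis, TPM per library, starting at 0; x axis, group); points are libraries, and the bar shows the mean ± SD of 6 libraries. For Gstm3 the lowest sham library, at 3.64 TPM, lies just above the highest vehicle library, at 3.57 TPM, while the other 4 genes overlap.

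No UGT gene and none of the 4 alpha-class genes passed in vehicle against sham. Ugt1a1, the enzyme that glucuronidates bilirubin, spread from 3.50 to 91.9 TPM in sham and from 6.56 to 212.3 TPM in vehicle, and its difference of 1.33 ± 0.93 did not pass (adjusted p = 0.489 in limma). Ugt2b34 stood at 295.6 ± 96.5 TPM in sham and 185.2 ± 76.0 TPM in vehicle (SD), with -0.69 ± 0.29 (adjusted p = 0.196). Ugt1a7c stood at 116 ± 43.1 and 91.3 ± 35.0 TPM. The alpha-class Gsta4, which conjugates the lipid peroxidation product 4-hydroxynonenal, stood at 64.8 ± 10.5 TPM in sham and 64.1 ± 27.8 TPM in vehicle, and Gsta1 at 9.58 ± 3.15 and 10.8 ± 5.56 TPM. Gstp1 stood at 297.5 ± 44.0 and 284.4 ± 52.4 TPM, Gstp2 at 121.8 ± 30.6 and 100.3 ± 15.9 TPM and Gsto1 at 255.2 ± 37.0 and 290.4 ± 71.6 TPM. Gstk1, the mitochondrial and peroxisomal kappa enzyme, stood at 54.0 ± 20.7 and 67.0 ± 22.6 TPM, and Gstz1, a step of tyrosine breakdown, at 28.0 ± 14.7 and 30.6 ± 13.8 TPM. None of these genes passed.

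Among the 33 genes, Gstm3 alone had groups that did not overlap between vehicle and sham, which is 3.03% against 1.91% of all genes tested in that direction. None was without overlap in the other direction, against 0.687%. Leaving out sham replicate 2 reduced the genes that passed to 2, Gstm1 and Gstm3, and leaving out sham replicate 4 reduced them to 3. Without vehicle replicate 1, 7 passed. Over all 14129 genes tested, 584 were lower with all libraries, 314 without sham replicate 2, 328 without sham replicate 4 and 884 without vehicle replicate 1. Markers of other cells moved in the comparison of vehicle with sham, where 4.13% of all genes were lower and 0.326% higher. The 9 surface colonocyte markers summed to 7875 to 13191 TPM in sham and 3997 to 10117 TPM in vehicle, with 4 of 9 lower. The 8 smooth muscle markers summed to 2735 to 5463 TPM in sham and 1844 to 6090 TPM in vehicle, with all 8 differences negative and none passing. The 10 neutrophil markers summed to 37.6 to 719 TPM in sham and 188.8 to 26923 TPM in vehicle, with 3 of 10 higher. The 8 goblet cell markers summed to 20227 to 34124 TPM in sham and 7901 to 33893 TPM in vehicle, with 2 of 8 lower, and the 8 adipocyte markers to 27.5 to 3469 and 34.2 to 3302 TPM, with none passing. Of the 7 pancreas markers, 2 reached 1 TPM and Cpa1 was listed at 0, and their sum ran from 87.3 to 262.9 TPM in sham and 18.4 to 136.1 TPM in vehicle, with 1 of 2 tested lower. The colon position markers, which include Hoxb13, summed to 114.1 to 434.4 and 16.6 to 301.6 TPM, with 1 of 4 tested lower. Except for Hoxb13, whose level was also used as a covariate, the part of these lists in the result was not tested. With the summed epithelial markers as a covariate, 4 of the 5 genes still passed, and Gstm6 had -1.01 with adjusted p = 0.0505 in limma, against -1.15 without it. Of all 14129 genes tested, 353 were lower with this covariate, against 584 without it.

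The genes that feed and control conjugation were read from 7 lists of 71 genes, of which 65 were tested. In vehicle against sham 7 were lower, or 10.77% against 4.13% of all genes, and none was higher, against 0.326%. At an unadjusted p under 0.05, 12 of 65 were lower and 2 higher, against 14.9% and 3.16% of all genes. On the sulfate side, 2 of 9 passed: the sulfate transporter Slc26a2 stood at 261.9 ± 171.4 TPM in sham and 63.3 ± 36.3 TPM in vehicle (SD, n = 6), a fall of 2.08 ± 0.38 on the log2 scale, and Papss1, which makes the sulfate donor PAPS, stood at 69.2 ± 8.98 and 43.7 ± 12.2 TPM. Of 15 genes of glutathione synthesis and recycling 1 passed, Cth, which makes cysteine from cystathionine, with 49.0 ± 15.4 and 24.7 ± 4.23 TPM. Of 7 microsomal and sigma-class transferases 1 passed, Hpgds, the prostaglandin D2 synthase, with 6.50 ± 3.06 and 2.63 ± 0.81 TPM.

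Of 15 regulators 3 passed, all lower in vehicle. Nr1i3, the xenobiotic receptor CAR, stood at 4.95 ± 3.26 TPM in sham and 0.50 ± 0.48 TPM in vehicle, Hnf4a, a hepatocyte nuclear factor of gut and liver epithelium, at 253 ± 32.3 and 162.8 ± 38.5 TPM, and Vdr, the vitamin D receptor, at 140.4 ± 36.9 and 77.4 ± 23.2 TPM (SD). The 7 genes had adjusted p between 0.006 and 0.0314 in limma. None of the 5 UDP-glucuronate supply genes passed: Ugdh, which makes UDP-glucuronate, stood at 358.5 ± 123.4 and 207.9 ± 82.1 TPM (adjusted p = 0.223 in limma). The conjugate pump Abcc3, at 65.2 ± 19.7 and 35.1 ± 14.0 TPM, and the acetyltransferase Nat2, at 44.0 ± 6.90 and 27.1 ± 10.9 TPM, missed the threshold with adjusted p = 0.0533 and 0.0523. The count of 7 dropped to 3 without sham replicate 2, sham replicate 4 or vehicle replicate 5, and to 4 without sham replicate 1 or 5. Over all genes tested, 584 were lower with all libraries. That number was 314, 328 and 319 without sham replicate 2, sham replicate 4 and vehicle replicate 5, and 394 and 333 without sham replicates 1 and 5.

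The comparison of ISM012-042 with vehicle asks what the compound did within colitis, and it shares the vehicle libraries with the comparison above. None of the 33 genes passed in limma, as was true of all 14129 genes tested (0% in each direction). At an unadjusted p under 0.05, 3 of the 33 were higher, or 9.09%, against 18.9% of all genes, and 0 were lower. Differences were positive for 31 of 33 genes, against 92.1% of all genes, and their median was 0.43 against 0.30 over all genes. Median-ratio scaling took the median of all genes from 0.30 to 0.005, and the 33 genes then had a median of 0.11, with 20 positive and 13 negative.

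The 6 genes of smallest unadjusted p were Gstm1, Gstt1, Ugt2b35, Gstm4, Gsta2 and Gstm7, with adjusted p of 0.233 to 0.28 in limma. Gstm1 had a difference of 0.55 ± 0.18 and Gstt1 one of 0.39 ± 0.16, and in both the ISM012-042 values lay between those of sham and vehicle by their medians while overlapping both. With median-ratio scaling these became 0.21 and 0.07. Ugt2b35 stood at 9.03 ± 4.06 TPM in vehicle and 14.3 ± 4.2 TPM in ISM012-042 (SD), a difference of 0.66 ± 0.28. Gstm4 stood at 5.58 ± 1.87 and 7.69 ± 1.88 TPM, Gstm7 at 3.56 ± 1.57 and 5.53 ± 2.62 TPM and the low transcript Gsta2 at 1.18 ± 0.54 and 2.12 ± 1.21 TPM. No gene of the 33 had groups that did not overlap, against 0.651% of all genes higher and 0.0212% lower. None of the 65 tested pathway genes passed either, with 15 higher and 0 lower at an unadjusted p under 0.05, or 23.08% higher against 18.9% of all genes. Their smallest p values in this comparison included those of the sulfatase Arsb, 0.72 ± 0.19, and Abcc3, 0.75 ± 0.26.

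**Figure D3:**
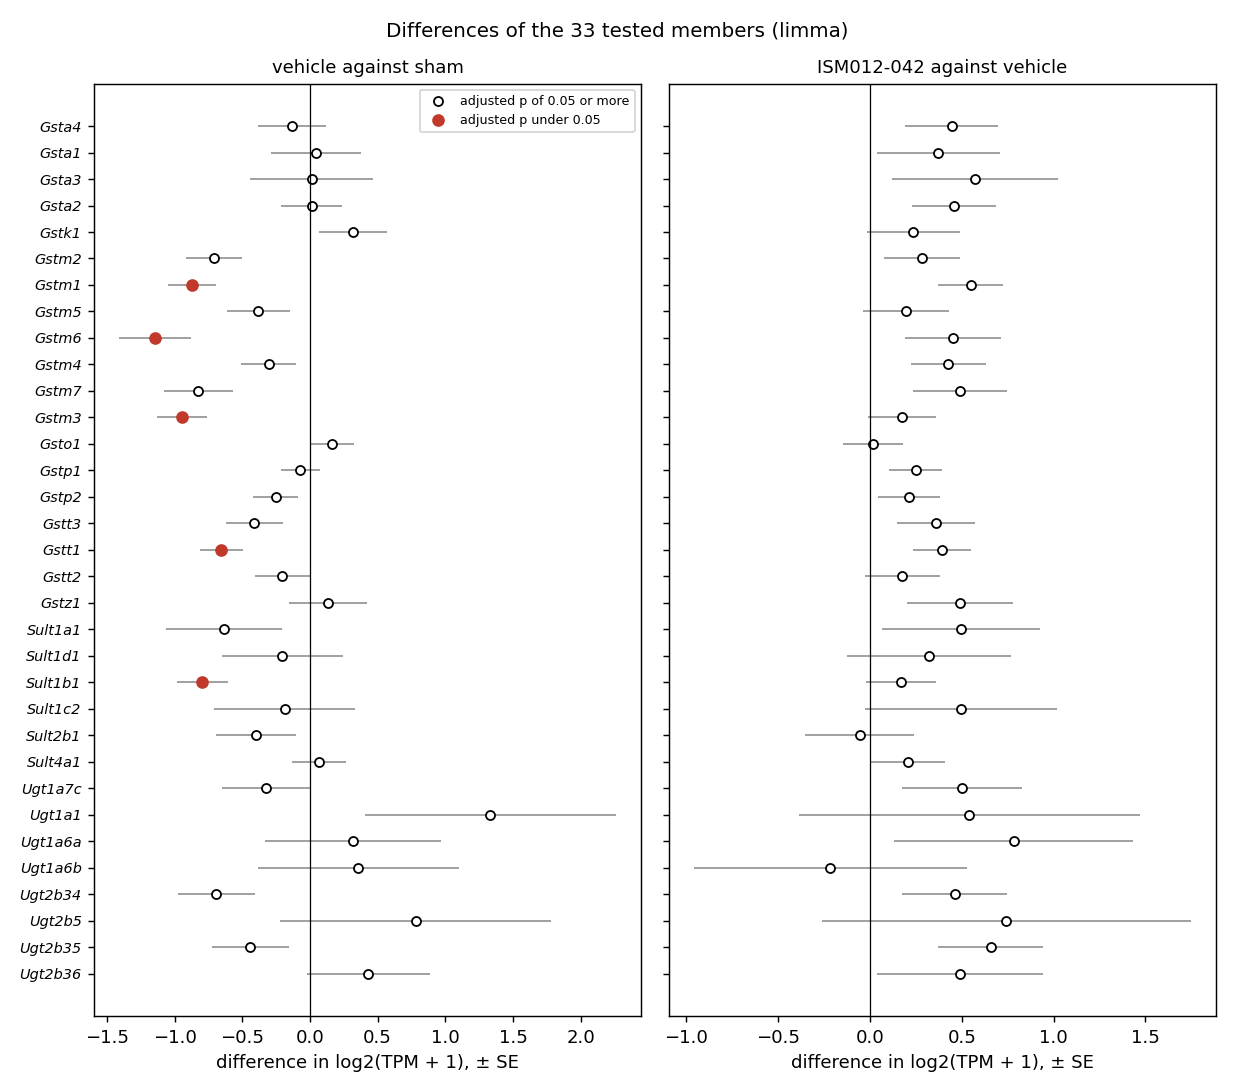
Difference in log2(TPM + 1) ± SE for the 33 tested genes (rows), for vehicle against sham on the left and ISM012-042 against vehicle on the right; filled points have an adjusted p under 0.05. On the left the 7 Gstm points all lie below 0, with 3 filled, and on the right no point is filled and 31 of 33 lie above 0.

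In ISM012-042 against sham, which shares the sham libraries with the first comparison and the ISM012-042 libraries with the second, 1 of the 33 genes passed as lower, or 3.03% against 0.871% of all genes, and none as higher, against 0.545%. This was Gstm3, which ranged from 2.10 through 2.59 to 3.58 TPM under the compound, below every sham library, and had a difference of -0.77 ± 0.19 (adjusted p = 0.0446 in limma). Its groups did not overlap, which was so for 1.05% of all genes in that direction. No other gene was without overlap, against 3.8% of all genes in the higher direction. At an unadjusted p under 0.05, 2 genes were higher and 3 lower, against 16.3% and 4.44% of all genes, and 19 of 33 differences were positive, against 77.1%. The call held in 7 of 21 alternatives, with adjusted p from 0.0026 to 0.117, and was lost for example with a pseudocount of 0.1 and on leaving out sham replicate 2. Sult1b1 had -0.63 ± 0.19 and did not pass (adjusted p = 0.107 in limma), but it passed with median-ratio scaling, at -0.85 with adjusted p = 0.0121. Under that scaling 4 of the 33 genes were lower, Gstm2, Gstm3, Gstm6 and Sult1b1. Of all 14119 genes tested under it, 617 were lower, a larger share than the 0.871% without this scaling. Of the pathway genes 1 was lower, Nr1i3, with 0.99 ± 0.77 TPM in ISM012-042 (SD) and a difference of -1.49 ± 0.34 (adjusted p = 0.035 in limma).

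Several UGT and SULT1 genes that were uneven within each group moved with the level of Hoxb13. This relation was examined after the values had been seen, by adding the log2 level of Hoxb13 to the 3 groups in the limma fit of all genes. A slope is the change in log2(TPM + 1) of a gene per log2 unit of Hoxb13. Of the 33 genes, 9 had a negative slope that passed, or 27.27%, against 3.21% of all genes tested: Ugt1a1, Ugt1a6a, Ugt1a6b, Ugt2b5, Ugt2b36, Sult1a1, Sult1c2, Sult1d1 and Sult2b1. Positive slopes passed for 6, or 18.18%, against 32.9% of all genes: Gstm2, Gstm5, Gstm6, Gstm7, Gstt2 and Gstt3.

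The steepest slopes were those of Ugt2b5, -0.49 ± 0.13, and Ugt1a1, -0.48 ± 0.11 (adjusted p = 0.0115 and 0.00694 in limma, 18 libraries). Ugt1a1 was highest, at 240.5 TPM, in ISM012-042 replicate 5, the library of lowest Hoxb13, and lowest, at 3.50 TPM, in sham replicate 3, where Hoxb13 was at 237.7 TPM. Ugt2b5 stood at 48.7 and 0.127 TPM in the same libraries. Ugt1a6b and Ugt1a6a, whose enzymes glucuronidate planar phenols, had slopes of -0.37 ± 0.09 and -0.31 ± 0.08, and Sult1c2, Sult1d1 and Sult1a1 had -0.25 ± 0.07, -0.21 ± 0.06 and -0.21 ± 0.05. All 9 were negative within sham, within vehicle and within ISM012-042 when each group was fitted alone with no test. Sult2b1 had only -0.019 within sham. Of the 6 positive slopes, 5 were positive within sham, 6 within vehicle and 6 within ISM012-042. The genes were chosen by a slope over these same libraries, so the shared sign is largely built in and is no separate evidence. Sult1b1, the SULT1 gene that fell in colitis, had a slope of 0.06 ± 0.03 that did not pass (adjusted p = 0.0989 in limma).

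**Figure D4:**
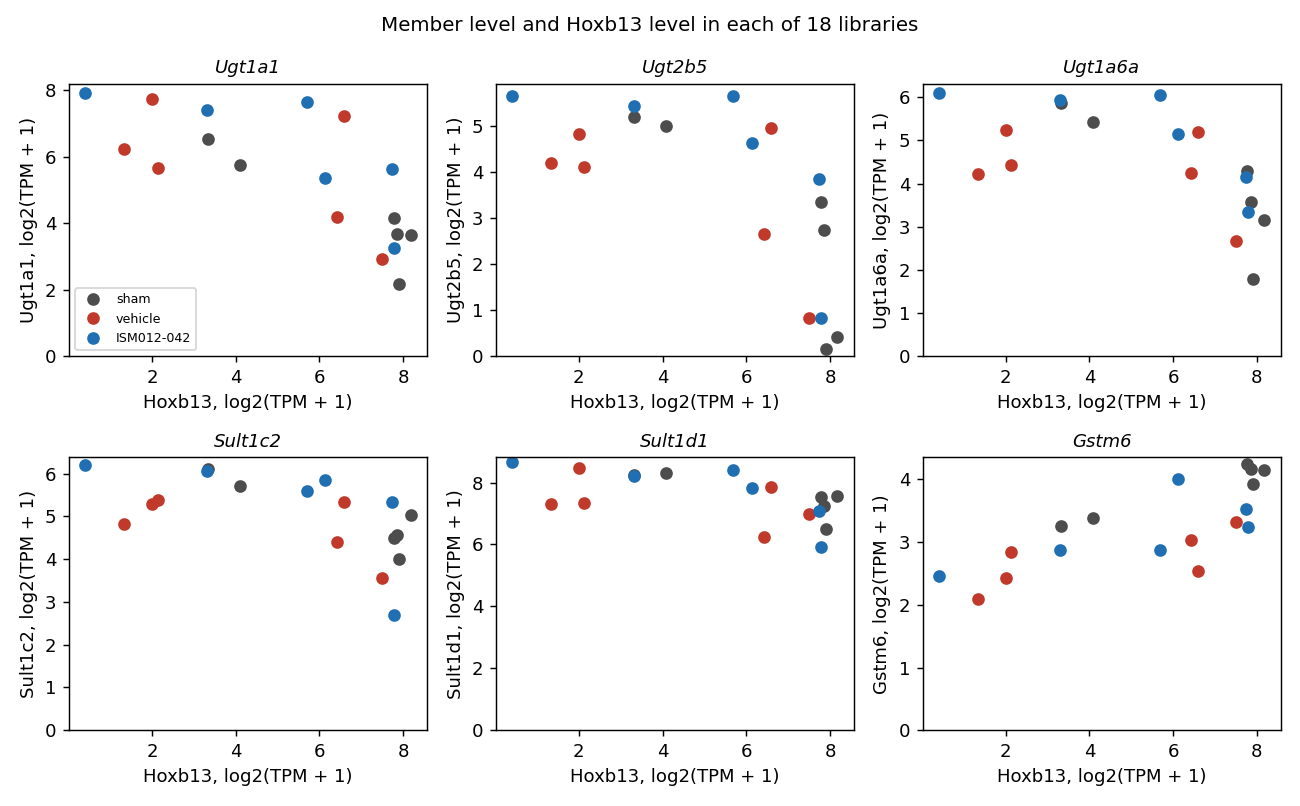
Level of 6 genes (y axis, log2(TPM + 1)) against the level of Hoxb13 (x axis, log2(TPM + 1)) in each of 18 libraries, coloured by group. Ugt1a1, Ugt2b5, Ugt1a6a, Sult1c2 and Sult1d1 are lower where Hoxb13 is high, with slopes of -0.21 to -0.49, and Gstm6 is higher there, with 0.14.

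The negative slopes were kept under other scalings, and of the positive ones Gstm5 alone passed under 1 of them. With median-ratio scaling all 9 negative slopes passed among 12 that did so, against 9.1% of all genes, and none of the positive ones passed, against 9.03%. Without the mitochondrial genes all 9 passed among 12, against 7.19%, and of the positive ones Gstm5 alone passed, against 9.27%. All 6 of these slopes kept a positive sign, at 0.03 to 0.09 with median-ratio scaling and 0.04 to 0.10 without the mitochondrial genes. Without the 2 libraries farthest from the median of Hoxb13, ISM012-042 replicate 5 and vehicle replicate 5, 8 of the 9 negative slopes passed, Sult2b1 being lost, and Gstt2 alone of the positive ones. Of all 14129 genes tested, 943 then passed with a positive slope, against 4655 with all libraries. With a negative slope 312 passed, against 454. The mitochondrial share moved with Hoxb13 in part: vehicle replicates 3, 4 and 5, with shares of 43.1%, 45.2% and 57.8%, were the 3 highest in that share and among the 4 lowest in Hoxb13. Other libraries did not follow this: sham replicate 3 had 42.6% with Hoxb13 at 237.7 TPM, and ISM012-042 replicate 1 had 33.1% with 8.90 TPM. Of the 9 surface colonocyte markers 4 passed with a negative and 3 with a positive slope, and all 10 neutrophil markers had positive slopes, of which 3 passed. Over all 14129 genes tested, 11727 slopes were positive. Of these genes, 32.9% passed with a positive and 3.21% with a negative slope. The part of colonocytes and neutrophils in the slopes was not tested.

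With the Hoxb13 level as a covariate, the same 5 genes as before were lower in vehicle than in sham, with adjusted p of 0.014 to 0.048 in limma, and none was higher. Of all 14129 genes tested in that fit, 452 were lower and 167 higher. Ugt2b5 changed sign from 0.78 to -0.30, without passing in either fit. Of the 8 tested UGT genes, 5 had a positive difference between vehicle and sham without the covariate and 1 with it.

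The genes of the Ugt1 locus on chromosome 1 share their last exons and differ in their first, so that each library also has a mix of first exons. Ugt1a7c (chr1:88095001-88220002), Ugt1a6a (chr1:88134809-88220002) and Ugt1a1 (chr1:88211959-88220002) end at the same base. Of their transcripts, 69.3%, 100% and 58.2% of the 50-base runs occur in another annotated transcript, so the split among them depends on how reads were assigned, which is not given in the sources used here. Of the summed level of the 4 tested Ugt1 genes, Ugt1a1 made up 5.39% in sham replicate 3 and 57.4% in vehicle replicate 3, where Hoxb13 was at 3.01 TPM. Ugt1a7c made up 25.4% in vehicle replicate 5 and 86.9% in sham replicate 4, the library of highest Hoxb13, and its own slope of -0.07 ± 0.05 did not pass (adjusted p = 0.327 in limma). Ugt1a6b made up 25.0% of the locus in vehicle replicate 5 and 0.177% in sham replicate 4.

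**Figure D5:**
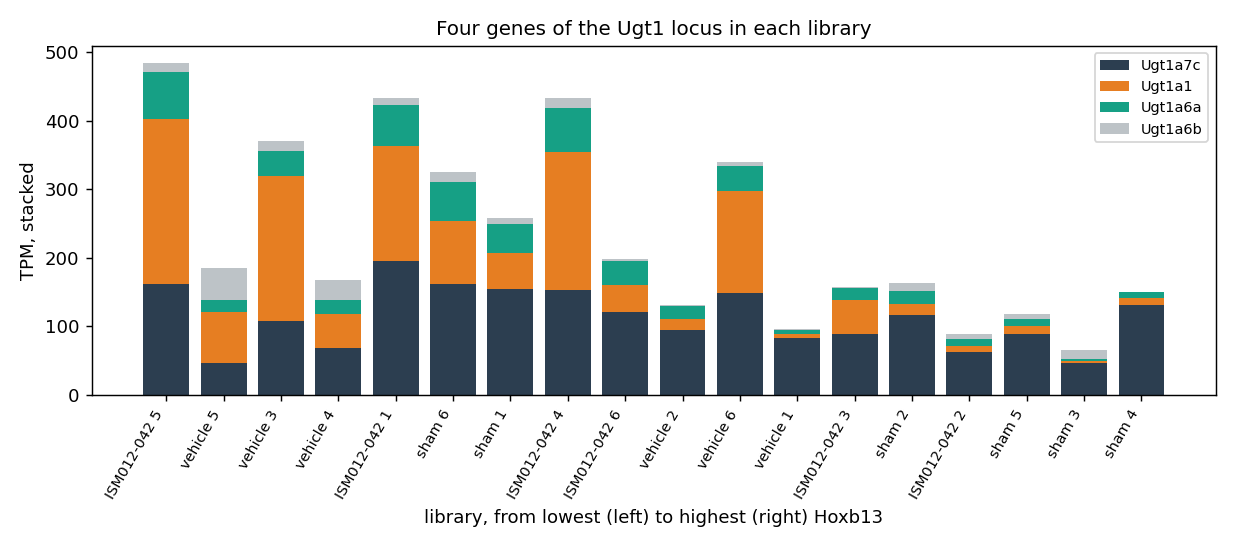
Stacked TPM of the 4 tested Ugt1 genes (y axis, TPM) in each of 18 libraries, ordered along the x axis from lowest to highest Hoxb13. Ugt1a1 takes 5.39% to 57.4% of the stack and tends to be the thinner part on the right, where Ugt1a7c takes up to 86.9%.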

How the data were processed

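RNA was purified from homogenized colon with RNeasy, and FastKing reagents gave cDNA, per the labels' protocols. The authors' deposited values are TPM in 18 libraries. The submitters' processing notes name mm10 and DRAGEN 4.0.3, without saying what each did, and annotation, strandedness and handling of shared reads are not stated there. An abundant class, such as mitochondrial RNA, lowers the TPM of all other genes. Groups and replicate numbers came from the titles, and TNBS from the design text.

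Values were transformed to log2(TPM + 1), and the 14129 genes at 1 TPM or more in 6 or more libraries were tested. One limma 3.58.1 fit under R 4.3.3 held all 18 libraries, with empirical Bayes (trend and robust), Benjamini-Hochberg adjustment over all genes and a threshold of 0.05. Values are not counts, so no count model was used. The fit was also run on simulated data in which the residuals of each gene were shuffled on their own. Such shuffling removes shifts shared by the genes of a library, so that run does not show the error rate in these data. The genes, lists and the Hoxb13 covariate were chosen with earlier results of these data known, and the Hoxb13 slopes were added after the values had been seen. Named are all genes passing in a comparison, the 2 of highest mean level in each class with several tested genes and otherwise the highest, the 6 of smallest p for ISM012-042 against vehicle, and of each pathway list up to 2 passing in vehicle against sham or the 1 of smallest p. Vdr, Gsta3, Hoxb13, Arsb and Abcc3 under the compound, and the further genes with Hoxb13 slopes were named after their values were seen. Alternatives were pseudocounts of 0.1 and 5, no filter, a minimum of 5 TPM, median-ratio scaling, leaving out mitochondrial genes, Hoxb13 or epithelial markers as covariate, the replicate block, fitting only the groups compared and leaving out each library. Shared 50-base runs were counted in the longest coding transcripts of GENCODE M21. Protein sequences were not used here.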

Additional observations from a re-analysis of the deposited data

Results flagged for a closer look

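The 33 tested genes give 99 groups of 6 libraries, and in 6 of them a single library stood apart from the rest, its gap to the nearest library being above Dixon's critical value at the 95% level. Chance alone sets such a library apart in about 1 of 20 groups. Vehicle replicate 4 was the highest of its group for 3 genes: Gsta3 at 26.7 TPM, with the next library at 10.4 TPM, Gstm1 at 138 TPM, with the next at 97.1 TPM, and Gstt1 at 30.6 TPM, with the next at 21.8 TPM. Vehicle replicate 6 was the highest for Gstp2, at 131 TPM against 100.1 TPM. Sham replicate 6 was the highest for Gstz1, at 56.7 TPM against 30.6 TPM. ISM012-042 replicate 2 was the lowest for Ugt2b34, at 132 TPM against 238.3 TPM.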

How the results depend on the processing

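In vehicle against sham, Gstm1 passed in 22 of 22 alternatives, Gstm3 in 21 of 21, Gstm6 in 20 of 22, Gstt1 in 17 of 22 and Sult1b1 in 17 of 22, with directions kept throughout. Leaving out 1 library gave 2 to 7 genes lower, 3 to 9 pathway genes lower and 1 to 5 genes without overlap, the last being 3 without mitochondrial genes. Over all genes tested, 314 to 884 were lower when 1 library was left out. For pathway genes, 2 were higher with median-ratio scaling, 1 without mitochondrial genes and 2 with Hoxb13, and 4 were lower with epithelial markers and 3 with only the groups compared. Of all genes tested, 518 of 14119 were higher with median-ratio scaling, 403 of 14979 without mitochondrial genes and 167 of 14129 with Hoxb13. Lower were 353 of 14129 with epithelial markers and 308 of 14129 with only the groups compared. In ISM012-042 against sham, the genes lower numbered 0 with a pseudocount of 0.1, no filter or a minimum of 5 TPM, 4 with median-ratio scaling, and 2 without mitochondrial genes, with epithelial markers or with only the groups compared. The pathway genes lower numbered 0, 0, 0, 4, 3, 2 and 3 in the same order, and those higher 2 with median-ratio scaling, 2 without mitochondrial genes, 3 with Hoxb13, 1 with epithelial markers and 2 with only the groups compared. Genes without overlap were 2 under both scalings, and leaving out 1 library gave 0 to 1, 0 to 1 and 1 to 2 for these counts. Over all genes tested in this comparison, 617 were lower with median-ratio scaling and 398 without mitochondrial genes. That number was 230 with epithelial markers and 232 with only the groups compared. It was 106 of 14129 with a pseudocount of 0.1, 109 of 25729 with no filter and 98 of 10412 with a minimum of 5 TPM. Higher were 137 of 14119 genes with median-ratio scaling, 729 of 14979 without mitochondrial genes and 1108 of 14129 with Hoxb13. With epithelial markers 318 of 14129 were higher, and with only the groups compared 477. In ISM012-042 against vehicle 0 to 2 genes were without overlap when 1 library was left out, both of the 2 (Gstm1 and Gstt1) without vehicle replicate 4, and no gene passed under any alternative run. Overlap over all genes was counted only with all libraries and without rescaling. The counts without overlap in this paragraph thus have no share of all genes beside them and were not read as results about these genes.

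The correlations between same-numbered replicates ran from -0.38 to 0.609, and 4 of 18 samples correlated best with their own number. The correlations were all positive for replicate 2 (0.004 to 0.609) and replicate 6 (0.0149 to 0.18), and of both signs for each of the other numbers. With the replicate block the same 5 genes were lower in vehicle than in sham, and in ISM012-042 against sham 0 genes and 0 pathway genes were lower. Of all 14129 genes tested with this block, 492 were lower in vehicle than in sham and 71 in ISM012-042 than in sham.

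Positive Hoxb13 slopes numbered 0 with median-ratio scaling, 1 without mitochondrial genes and 1 without the 2 farthest libraries. Over all genes tested, these settings gave 1275, 1388 and 943 positive slopes that passed, against 4655 in the main fit. Leaving out 1 library gave 4 to 8 positive and 9 to 10 negative slopes. Over all genes it gave 2542 to 6082 positive and 242 to 571 negative slopes that passed. Without mitochondrial genes the family sums in sham, vehicle and ISM012-042 were 2152, 1989 and 2113 TPM for GST, 1238, 991 and 1153 TPM for SULT and 752, 707 and 899 TPM for UGT, and median-ratio scaling gave 1276 TPM for GST in ISM012-042. Leaving out 1 library gave sums of 1387 to 1447, 1181 to 1299 and 1402 to 1460 TPM for GST, 763.7 to 891.8, 532.7 to 632.2 and 704.3 to 856.8 TPM for SULT and 452 to 562.2, 386.2 to 460.2 and 544.5 to 666.9 TPM for UGT.

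Some differences between vehicle and sham that had not passed changed sign. With Hoxb13, Gsta4 went to 0.041, Gstp1 to 0.0087, Gstz1 to -0.054, Sult4a1 to -0.036 and Ugt2b5 to -0.30. With epithelial markers Gsta4 went to 0.15 and Sult4a1 to -0.073. Gstp1 went to 0.045 with median-ratio scaling and 0.038 without mitochondrial genes. On leaving out 1 library, Gsta1 ran from -0.12 to 0.29, Gsta4 from -0.27 to 0.080, Gstz1 from -0.018 to 0.36, Sult1d1 from -0.43 to 0.022 and Sult4a1 from -0.035 to 0.18. The cause of these shifts was not tested. TPM keeps no depth, so the precision of low genes such as Gstm3 is known only from the spread between libraries. The planned identity between proteins was not run.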
